A study of Mus musculus with 6 samples.

Results

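The genes described here encode the subunits of the oxidative phosphorylation system that are made from nuclear DNA. They were chosen by symbol alone (Nduf, Sdha to Sdhd, Uqcr, Cox4 to Cox8 and Atp5, leaving out the Ndufaf assembly factors). No measured value enters that rule, but the choice was made with earlier results of these data known. The names matched 85 of the 24047 rows of the count table. The 76 rows with 10 or more counts in at least 3 libraries were kept, and each of them was also tested. They comprise 35 genes of complex I, 4 of complex II, 8 of complex III, 12 of complex IV and 14 of complex V, and 3 whose products are not structural subunits (Cox7a2l, Atp5s and Atp5sl). Ndufa4 was counted in complex IV, where its protein is now placed.

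The study compared polyadenylated RNA of CD4 T cells from Srsf1-cKO mice (Srsf1-flox/flox dLck.Cre) with that from WT mice, with 3 libraries in each group. Srsf1 encodes a splicing factor of the SR family, and in the mutant a Cre recombinase driven by the distal Lck promoter, which is active in T cells, is meant to delete the floxed gene. Both groups are of B6.129 background and 7 weeks of age, and their naive cells were purified from spleen as CD4+CD62L+ cells. All 6 cultures were stimulated with anti-CD3 at 0.5 µg/mL and anti-CD28 at 1 µg/mL for 72 h, and were then given PMA at 100 ng/mL and ionomycin at 1 µM for 4 h, so neither group was resting. Whether one mouse or several gave each library is not stated, so the p-values measure the spread between these libraries only.

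Oxidative phosphorylation takes place in the inner mitochondrial membrane. Complex I takes electrons from NADH and complex II takes them from succinate, ubiquinone carries them to complex III, cytochrome c carries them on to complex IV, and complex IV passes them to oxygen. Complexes I, III and IV pump protons, and complex V, the ATP synthase, uses the proton gradient to make ATP. Complexes I, III, IV and V combine nuclear-encoded and mitochondrially encoded subunits, while complex II is made of nuclear-encoded subunits alone. T cells increase both glycolysis and mitochondrial activity when they leave the naive state. The mitochondrially encoded subunits were sought by symbol and had no row among the counts, so they could not be analysed here.

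Promoter sequences are shown for 4 members, 3 that were higher and 1 that was lower in the libraries labelled Srsf1-cKO, because the group is known for binding sites of NRF1, the ETS factor GABPA, YY1 and SP1. They were picked from the 8 called members after values and matches had been seen, as examples that hold a match. Each line gives the 150 bases before an annotated transcription start, 5′ to 3′ on the gene's strand, from RefSeq on GRCm38.p6. Capitals mark exact matches to GGGCGG (SP1), CCGGAAG (GABPA) or AAGATGGC (YY1) on either strand. The Sdhb window is chr4:140961121-140961270 on the plus strand. The Ndufb8 window is chr19:44555443-44555592 on the minus strand. The Atp5j window is chr16:84834977-84835126 on the minus strand, before 1 of the 2 annotated starts of that gene. The Uqcrh window is chr4:116075071-116075220 on the minus strand.
Sdhb: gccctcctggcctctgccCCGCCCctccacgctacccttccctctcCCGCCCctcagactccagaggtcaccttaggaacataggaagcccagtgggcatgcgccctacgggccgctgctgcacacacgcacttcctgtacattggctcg
Ndufb8: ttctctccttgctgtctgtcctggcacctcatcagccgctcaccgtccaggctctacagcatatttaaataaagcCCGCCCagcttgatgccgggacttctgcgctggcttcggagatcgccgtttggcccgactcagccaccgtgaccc
Atp5j: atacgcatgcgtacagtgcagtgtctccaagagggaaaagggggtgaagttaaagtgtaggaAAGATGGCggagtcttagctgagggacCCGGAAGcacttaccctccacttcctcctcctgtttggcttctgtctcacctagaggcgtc
Uqcrh: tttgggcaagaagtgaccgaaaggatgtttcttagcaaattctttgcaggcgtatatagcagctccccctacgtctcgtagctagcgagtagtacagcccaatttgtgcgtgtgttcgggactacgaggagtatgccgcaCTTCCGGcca

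The Sdhb stretch holds a pair of SP1 matches, the Ndufb8 stretch 1 SP1 match, the Atp5j stretch 1 YY1 and 1 GABPA match, and the Uqcrh stretch 1 GABPA match. Of the stretches not printed, those of Ndufa4, Uqcrc1 and Ndufa6 held none of the 4 patterns, and those of Cox7a2l and of the other Atp5j start held 1 SP1 match each. Across the group, 65 of the 76 kept members had an entry in the promoter table, 3 of them through a synonym. For members and tested genes, a gene was counted if any of its annotated starts held a match. The share of all promoters counts each start separately, so it is not on the same footing. In the full promoter windows, which run past the start, the consensus pattern of NRF1 was present in 16 of these 65 (24.6%). It was present in 12.9% of the 8437 tested genes with an entry and in 4.6% of all 32851 promoters. For YY1 the share was 16.9% in members, against 5.93% in tested genes and 2.75% in all promoters. The GABPA pattern was in 23.1% of member promoters, 22.8% of those of tested genes and 8.86% of all. The SP1 pattern was found for 43.1% of members, fewer than the 70.6% of tested genes, and in 35.7% of all promoters counted per start. Called members with a match lay on both sides of the comparison for NRF1, GABPA and SP1, and on the higher side alone for YY1. NRF1 matches were found for Uqcrc1, which was higher, and Ndufa6, which was lower. GABPA matches were found for Sdhb and Atp5j, which were higher, and for Uqcrh, which was lower. SP1 matches were found for Ndufb8, Sdhb and Atp5j, which were higher, and for Ndufa6 and Cox7a2l, which were lower. YY1 matches were found for Ndufb8 and Atp5j, both higher. A match describes the letters of the window and is not a measured binding site.

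Total counts ran between 7781283 and 10184268 per library. The gene that the mutant is meant to lack was not lower: Srsf1 had 4839, 4911 and 5022 counts in the libraries labelled Srsf1-cKO, against 4889, 3520 and 3679 in the WT libraries, and its scaled level was 514 ± 39.1 against 495 ± 42.1 CPM (counts scaled to the library's effective size; SD, n = 3 each; log2 fold change 0.06, SE 0.12, edgeR adjusted p = 0.780). A count over the whole gene does not separate deleted from intact exons. The mutant group is therefore called by its label throughout. Summed over 8 T cell markers, the level was 2121 to 2967 CPM in the libraries labelled Srsf1-cKO and 2287 to 2645 CPM in the WT libraries. Of these 8, Cd3g was called higher (log2 fold change 0.72, edgeR adjusted p = 0.0452) and none was lower. Over 28 markers of other cell types, the sum was 169 to 175 CPM in the libraries labelled Srsf1-cKO and 87.8 to 116 CPM in the WT libraries. Of these 28, 11 could be tested, 4 of them were higher (Cd79a, Lyz2, H2-Aa and Cd74) and none was lower, and 6 (Ncr1 and 5 erythroid genes) had no count in any library. The part of these other cells in the results below was not tested.

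Most nuclear OXPHOS genes did not pass the test, and those that did went both ways. At an adjusted p under 0.05 in edgeR's quasi-likelihood test, 5 of the 76 members were higher in the libraries labelled Srsf1-cKO (6.58%) and 3 were lower (3.95%). Among all 10454 tested genes, 8.9% were called higher and 9.5% lower, so in this fit neither share of the members exceeded the background. Ndufa4, Atp5j, Ndufb8, Sdhb and Uqcrc1 rose, and Ndufa6, Uqcrh and Cox7a2l fell, while the other 68 members were not called. In bulk RNA, fewer cells carrying a transcript and less of it per cell cannot be told apart.

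Below the threshold, the fold changes leaned to one side. The log2 fold change was above 0 for 52 members and below 0 for 24, with a median of 0.24, while the median over all tested genes was 0.01. All 3 libraries labelled Srsf1-cKO lay above all 3 WT libraries in CPM for 32 members (42.1%), against 19.9% of all tested genes. The reverse order held for 3 members (3.95%), against 19.5% of all tested genes. These 3 are the genes that were called lower.

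**Figure D1:**
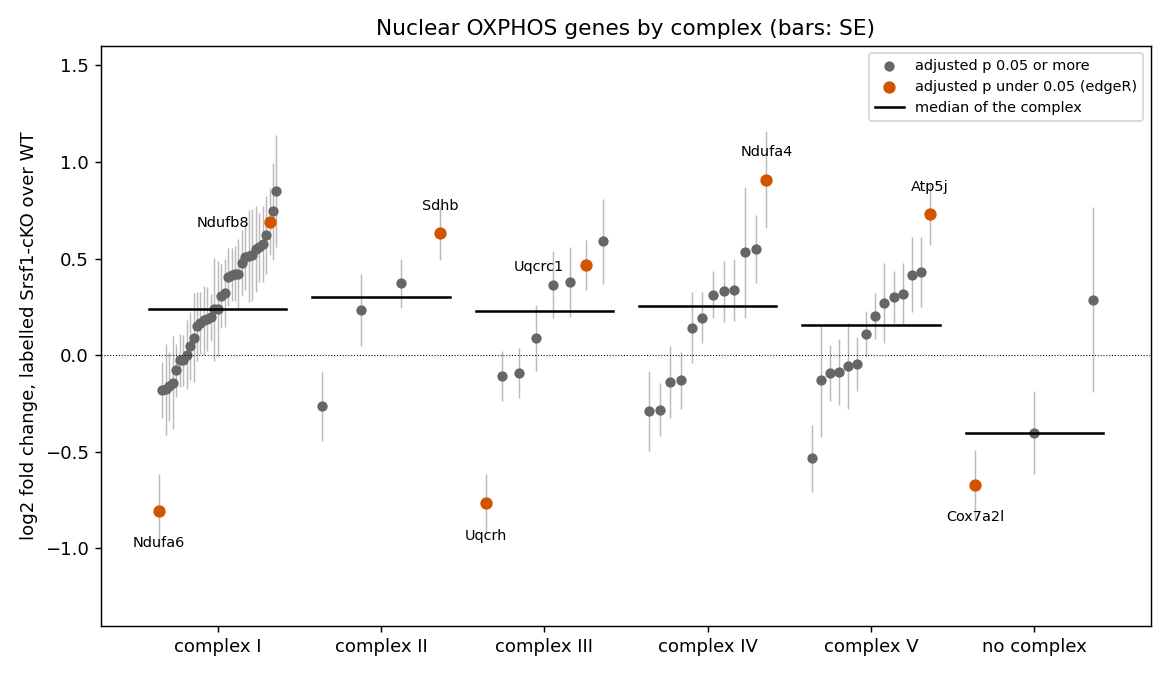
Log2 fold change (vertical axis, libraries labelled Srsf1-cKO over WT) of each tested member, grouped by complex along the horizontal axis, with bars for the SE and a black line for the median of each group. Orange points are the 8 members with an edgeR adjusted p under 0.05, 5 above 0 and 3 below it, and every complex has members on both sides of 0.

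The medians of the 5 complexes were close to each other. The median log2 fold change was 0.24 over the 35 genes of complex I, 0.30 over the 4 of complex II, 0.23 over the 8 of complex III, 0.25 over the 12 of complex IV and 0.16 over the 14 of complex V. Each complex had exactly 1 member that rose, and complexes I and III had 1 each that fell. Complexes II, IV and V had no member called lower in the main edgeR fit, with TMM scaling and all 6 libraries. At an unadjusted p under 0.05 no lower member was added in complexes II and IV, and 1 was in complex V, which DESeq2 also called. With sample weights, limma-voom called 1 lower in each of the 3, and 20.5% of all tested genes. No difference between complexes was tested.

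The lean was most marked in the libraries numbered 3. The library labelled Srsf1-cKO 3 had the highest CPM of all 6 for 53 of the 76 members (69.7%), against 22.2% of all tested genes. WT library 3 had the lowest for 36 members (47.4%), against 21.1% of all tested genes. Within its own group, Srsf1-cKO 3 was the highest for 70 members (92.1%, against 42.2% of tested genes), and WT 3 was the lowest for 53 (69.7%, against 38.3%). The median deviation of the members from their mean over libraries, on the log2 scale, was -0.04, 0.03 and 0.33 in the libraries labelled Srsf1-cKO, and -0.06, -0.02 and -0.21 in the WT libraries. Apart from the libraries numbered 3, the medians of the groups were interleaved and lay within 0.1 of each other. Members took 0.708%, 0.735% and 0.879% of all counts in the libraries labelled Srsf1-cKO, against 0.695%, 0.713% and 0.635% in the WT libraries. Of the 4 other-cell markers that were called, Lyz2, of myeloid cells, had 29, 43 and 149 counts in the libraries labelled Srsf1-cKO and 19, 4 and 0 counts in the WT libraries. The other 3, H2-Aa, Cd74 and Cd79a, were lowest in Srsf1-cKO 3 among the libraries labelled Srsf1-cKO. The part of these cells in the pattern was not tested.

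**Figure D2:**
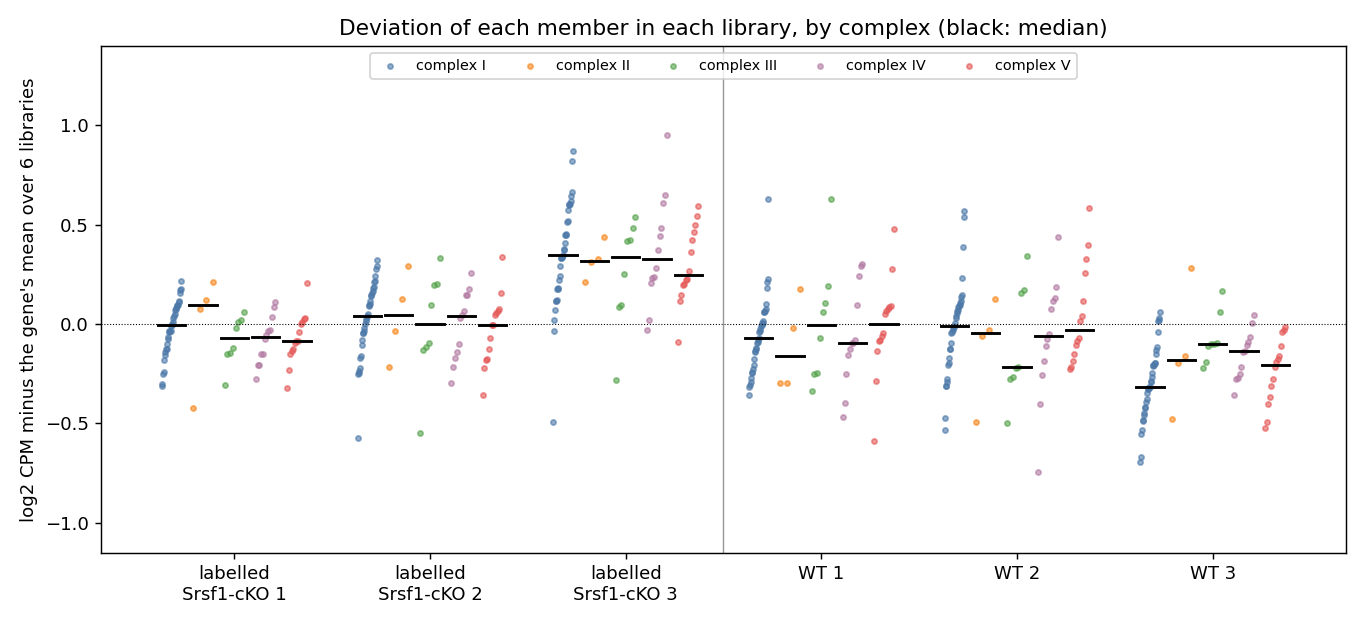
Deviation (log2 CPM, vertical axis) of each member of complexes I to V from its mean over the 6 libraries. Points are grouped by library along the horizontal axis and coloured by complex, with black lines at the medians. In each of complexes I to V the median is highest in the library labelled Srsf1-cKO 3, between 0.245 and 0.350, and the median in WT 3 lies below 0, between -0.318 and -0.100.

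Leaving out libraries moved the median but not the direction of the strongest genes. Without Srsf1-cKO 3, the members' median log2 fold change was 0.13, with 45 of 76 above 0, and 2 members were higher and 1 lower, against 6.53% and 6.51% of all tested genes. Without WT 3 the median was also 0.13, with 49 above 0, and 3 members were higher and 5 lower, against 8.47% and 10.1%. With both libraries numbered 3 left out, an alternative added after these values had been seen, the median was 0.07 and 40 of 76 members lay above 0. In that comparison of 2 libraries with 2, 4 members were higher (Sdhb, Ndufb8, Atp5j and Ndufa4) and 9 were lower, against 11.8% and 13.6% of all tested genes. The 9 were Ndufa6, Uqcrh and Cox7a2l with Cox7c, Atp5e, Ndufb11, Cox8a, Cox4i1 and Atp5d. Without Srsf1-cKO 2 or without WT 1 no member was called, and calls over all genes fell to 131 higher and 103 lower in the first case and to 80 and 115 in the second. Why these libraries differ was not tested.

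Complex I is an L-shaped assembly of a matrix arm, which holds the flavin and the iron-sulphur clusters, and a membrane arm, which pumps protons. Its 7 nuclear-encoded core catalytic subunits did not pass in the main edgeR fit, DESeq2 or limma-voom. At an unadjusted p under 0.05 in edgeR, 2 of them were higher, and 1 was called higher by limma-voom with sample weights. Of these 7, 6 had a log2 fold change above 0, with a median of 0.17. Ndufv2, an iron-sulphur subunit of the NADH-oxidising module, had 128, 126 and 145 CPM in the libraries labelled Srsf1-cKO against 93.5, 114 and 91.3 CPM in the WT libraries. These values did not overlap, yet the change missed the threshold (log2 fold change 0.42, SE 0.14, edgeR adjusted p = 0.0634). Ndufs7, which carries the last iron-sulphur cluster before ubiquinone, had the highest p of the complex (log2 fold change 0.00, adjusted p = 0.993; 95% interval -0.40 to 0.41), with 13.4 ± 0.933 CPM in the libraries labelled Srsf1-cKO and 13.4 ± 1.34 CPM in the WT libraries (SD, n = 3 each).

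The accessory subunits surround this core. The 10 at the distal end of the membrane arm, the Ndufb genes, had a median log2 fold change of 0.46, and 7 of them lay above 0. Ndufb8 was the one that rose. It had 55.5, 63.7 and 82.3 CPM in the libraries labelled Srsf1-cKO, against 44.4, 42.3 and 38.1 CPM in the WT libraries, so that the groups did not overlap (log2 fold change 0.69, SE 0.17, edgeR adjusted p = 0.0279). Its call was lost without Srsf1-cKO 2 (adjusted p = 0.0908), without Srsf1-cKO 3 (0.0563), without WT 1 (0.0949) and without WT 3 (0.0503), and it was kept with both libraries numbered 3 left out (0.0471). Ndufb4 had the largest fold change of complex I and few counts, with 55, 69 and 121 in the libraries labelled Srsf1-cKO against 44, 38 and 31 in the WT libraries, and did not pass (log2 fold change 0.85, SE 0.29, adjusted p = 0.0714). Ndufb9, a subunit of the LYR-motif family, had 43.6, 40.1 and 53.9 CPM in the libraries labelled Srsf1-cKO against 30.3, 36.3 and 26.8 CPM in the WT libraries (log2 fold change 0.56, adjusted p = 0.0587). In Ndufb5, Ndufb10 and Ndufb11 the log2 fold change lay between -0.18 and -0.03.

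Ndufa6, another LYR-motif subunit, which sits in the matrix arm and binds the mitochondrial acyl carrier protein, was the member of complex I that fell. It had 76.6, 56.1 and 59.2 CPM in the libraries labelled Srsf1-cKO and 130, 121 and 84.9 CPM in the WT libraries. All 3 libraries labelled Srsf1-cKO lay below the lowest WT library, and WT 3 was the nearest to them (log2 fold change -0.81, SE 0.19, edgeR adjusted p = 0.0243). The adjusted p was 0.108 without Srsf1-cKO 2, 0.0654 without Srsf1-cKO 3 and 0.106 without WT 1. Ndufab1, the acyl carrier protein itself, had few counts in these libraries, 24 to 48. Its scaled count was 4.74 ± 0.573 CPM in the libraries labelled Srsf1-cKO and 4.01 ± 0.740 CPM in the WT libraries (log2 fold change 0.24, adjusted p = 0.560). Over the 18 accessory subunits outside the distal arm the median log2 fold change was 0.27, and 14 lay above 0. Among them Ndufa5, of the matrix arm, had 21.1, 25.6 and 34.4 CPM in the libraries labelled Srsf1-cKO, against 17.8, 17.3 and 17.6 CPM in the WT libraries. The WT values were nearly equal and the others widely spread, and the change did not pass (log2 fold change 0.62, SE 0.20, adjusted p = 0.0620).

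Complex II, which is also the succinate dehydrogenase of the TCA cycle, has 4 subunits. Sdhb, its iron-sulphur subunit, rose, with 98.0, 104 and 115 CPM in the libraries labelled Srsf1-cKO and 68.8, 60.1 and 75.6 CPM in the WT libraries. The groups were well apart (log2 fold change 0.63, SE 0.14, 95% interval 0.32 to 0.94, edgeR adjusted p = 0.0186). This call held in 4 of the 6 comparisons with 1 library left out and with both libraries numbered 3 left out, and was lost without Srsf1-cKO 2 (adjusted p = 0.0794) and without WT 1 (0.0828). Sdha, the flavin subunit, had 164, 165 and 187 CPM in the libraries labelled Srsf1-cKO against 123, 145 and 132 CPM in the WT libraries, which do not overlap, and missed the threshold (log2 fold change 0.37, SE 0.13, adjusted p = 0.0694). The membrane anchors, which hold the haem and the ubiquinone site, overlapped between the groups. Sdhc had 50.6 ± 6.66 CPM in the libraries labelled Srsf1-cKO and 43.0 ± 8.94 CPM in the WT libraries (log2 fold change 0.23, adjusted p = 0.405). Sdhd had 62.6, 72.1 and 97.2 CPM in the libraries labelled Srsf1-cKO and 94.6, 82.1 and 102 CPM in the WT libraries (log2 fold change -0.27, adjusted p = 0.326). The anchors thus had point values on opposite sides of 0, neither past the test.

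In complex III 1 member rose and 1 fell. Uqcrc1, a core protein on the matrix side, rose, with 123, 135 and 157 CPM in the libraries labelled Srsf1-cKO against 99.1, 101 and 101 CPM in the WT libraries (log2 fold change 0.47, SE 0.13, edgeR adjusted p = 0.0395). Its WT values were nearly identical (SD 0.951). It was the least stable of the 8 calls: its adjusted p lay between 0.0544 and 0.146 when any 1 library was left out. Uqcrc2, the partner core protein, overlapped between the groups with 242 ± 21.4 CPM in the libraries labelled Srsf1-cKO and 258 ± 23.7 CPM in the WT libraries (log2 fold change -0.09, adjusted p = 0.646; 95% interval -0.38 to 0.20).

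Uqcrh, the hinge protein that binds cytochrome c1, had the smallest p of all 76 members. It had 179, 152 and 182 CPM in the libraries labelled Srsf1-cKO and 344, 281 and 249 CPM in the WT libraries, with no overlap (log2 fold change -0.77, SE 0.15, 95% interval -1.11 to -0.42, edgeR adjusted p = 0.0135). Its fold change lay between -0.89 and -0.65 when 1 library was left out, and its call was lost without Srsf1-cKO 2 (adjusted p = 0.0755) and without WT 1 (0.0647). The other 4 small accessory subunits had point values above 0. Uqcr11 had 11.4, 14.5 and 16.8 CPM in the libraries labelled Srsf1-cKO against 9.62, 8.06 and 10.7 CPM in the WT libraries (log2 fold change 0.59, adjusted p = 0.0915). For Uqcr10 and Uqcrb, log2 fold changes were 0.38 and 0.37, with adjusted p-values of 0.174 and 0.172. Uqcrq, a ubiquinone-binding subunit, was near 0 (log2 fold change 0.09, adjusted p = 0.743), and Uqcrfs1, the Rieske iron-sulphur protein, had 200.5 ± 17.4 CPM in the libraries labelled Srsf1-cKO and 216 ± 19.6 CPM in the WT libraries (log2 fold change -0.11, adjusted p = 0.579).

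Among the 12 kept genes of complex IV, the terminal oxidase, 1 rose. Ndufa4, named for complex I and now counted with cytochrome c oxidase, had 52.4, 58.0 and 94.1 CPM in the libraries labelled Srsf1-cKO and 35.0, 28.9 and 45.1 CPM in the WT libraries. The groups did not overlap, and the third library of each group was its highest (log2 fold change 0.91, SE 0.25, 95% interval 0.34 to 1.48, edgeR adjusted p = 0.0384). This was the largest fold change of the 76 members. Without Srsf1-cKO 3 it was 0.60 with an adjusted p of 0.0850, and it also missed the threshold without Srsf1-cKO 2 (0.0839), without WT 1 (0.140) and without WT 2 (0.0871). With Ndufa4 placed in complex I instead, no complex median changed by more than the spread between libraries.

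Several subunits of cytochrome c oxidase exist as paired isoforms, of which one is general and the other is restricted to certain tissues or states. For each pair the general form made up nearly all of the signal. Cox4i1 was the most abundant gene of the complex in CPM and in FPKM (fragments scaled by gene length and depth, the scale used here for levels between genes). It had 252, 228 and 284 CPM in the libraries labelled Srsf1-cKO and 345, 303 and 281 CPM in the WT libraries, which touch at the edge (log2 fold change -0.28, SE 0.14, adjusted p = 0.176). Cox4i2, its hypoxia-linked counterpart, had no count in the libraries labelled Srsf1-cKO and 4, 4 and 1 counts in the WT libraries, too few for a test. Cox6a1 had 72.7, 78.6 and 108 CPM in the libraries labelled Srsf1-cKO against 59.5, 53.7 and 64.4 CPM in the WT libraries (log2 fold change 0.55, SE 0.18, adjusted p = 0.0594). It was called higher by DESeq2, by limma-voom with sample weights, and by edgeR with library size alone or with a replicate block. Cox6a2, the heart and muscle form, had 2 counts or fewer in each library. Cox7a2 had 95.3 ± 11.2 CPM in the libraries labelled Srsf1-cKO and 83.3 ± 2.48 CPM in the WT libraries (log2 fold change 0.19, adjusted p = 0.322). The muscle form Cox7a1 had 4, 3 and 1 counts in the libraries labelled Srsf1-cKO and 1 count in each WT library. Cox6b1 (log2 fold change -0.13, adjusted p = 0.554) stood beside a testis form, Cox6b2, that was detected at 3.10 ± 0.946 CPM in the libraries labelled Srsf1-cKO and 2.16 ± 0.253 CPM in the WT libraries (log2 fold change 0.53, adjusted p = 0.295). Cox8b, Cox8c and Cox7b2 had no count in any library, which in the shallowest library still allows up to 0.386 CPM (3 counts, counting error only). Ndufa4l2, the relative of Ndufa4, had no count in the libraries labelled Srsf1-cKO and 1, 1 and 0 counts in the WT libraries.

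The remaining subunits of complex IV were not called in the main edgeR fit, with TMM scaling and all 6 libraries. Cox5a, which sits on the matrix side, had 125, 131 and 139 CPM in the libraries labelled Srsf1-cKO and 108, 112 and 97.5 CPM in the WT libraries (log2 fold change 0.31, SE 0.12, adjusted p = 0.101), and was called higher by limma-voom with sample weights and with library size alone. Cox6c and Cox7b were at log2 fold changes of 0.33 and 0.34 (adjusted p = 0.171 and 0.174), with both groups apart. Cox8a overlapped, at 59.9 ± 11.7 CPM in the libraries labelled Srsf1-cKO and 66.0 ± 10.9 CPM in the WT libraries (log2 fold change -0.14, adjusted p = 0.623).

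In complex V, Atp5j, the coupling factor F6 of the peripheral stalk, rose. It had 74.8, 82.0 and 94.8 CPM in the libraries labelled Srsf1-cKO against 43.1, 55.4 and 53.5 CPM in the WT libraries, with a wide gap between the groups (log2 fold change 0.73, SE 0.16, 95% interval 0.38 to 1.08, edgeR adjusted p = 0.0172). Its call was lost without Srsf1-cKO 2 (adjusted p = 0.0724) and without WT 1 (0.0873) and held in the other 4 comparisons with 1 library left out. The other stalk subunits did not pass. Atp5f1 (subunit b) had a log2 fold change of 0.30 (adjusted p = 0.144), while Atp5h (subunit d) and Atp5o (the oligomycin-sensitivity protein) were at -0.05 and -0.09 (adjusted p = 0.845 and 0.677). One stalk subunit therefore stood apart from its 3 partners in point value, though the difference between them was not tested.

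None of the 5 genes of the F1 head and central stalk, which carry the catalytic sites and the rotor shaft, was called in the main edgeR fit or by limma-voom. Atp5d was lower at an unadjusted p under 0.05 in edgeR, and was called lower by DESeq2 and by limma-voom with sample weights. Atp5b, the catalytic beta subunit and the member with the highest CPM, had 1218, 1190.1 and 1322 CPM in the libraries labelled Srsf1-cKO and 1254, 1139 and 1068 CPM in the WT libraries (log2 fold change 0.11, SE 0.12, 95% interval -0.16 to 0.38, adjusted p = 0.552). Atp5a1, the alpha subunit, had 865 ± 67.8 CPM in the libraries labelled Srsf1-cKO and 752 ± 41.3 CPM in the WT libraries (log2 fold change 0.20, adjusted p = 0.259). Atp5d, the delta subunit of the shaft, had 87.0, 84.9 and 102 CPM in the libraries labelled Srsf1-cKO against 152, 144 and 101 CPM in the WT libraries. Here WT 3 alone fell among the other group's values, and the change narrowly missed the threshold (log2 fold change -0.53, SE 0.17, adjusted p = 0.0624). Atp5d was called lower by edgeR with no filter, with length-adjusted offsets, without WT 3 and without both libraries numbered 3. Atp5e, the epsilon subunit, overlapped (log2 fold change -0.06, adjusted p = 0.879) and was called lower without both libraries numbered 3.

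The c ring, the rotor in the membrane, is built from one protein encoded by 3 genes. None of the 3 was called by edgeR, DESeq2 or limma-voom, with or without sample weights, and none had an unadjusted p under 0.05. Atp5g3 had 127, 142 and 186 CPM in the libraries labelled Srsf1-cKO against 131, 116 and 118 CPM in the WT libraries (log2 fold change 0.32, adjusted p = 0.189). Atp5g1 had a log2 fold change of 0.27 (adjusted p = 0.385) and Atp5g2 of -0.13 (adjusted p = 0.780). On the FPKM scale the mean levels of Atp5g3, Atp5g2 and Atp5g1 were 229.7, 169 and 44.2 in the libraries labelled Srsf1-cKO, and 172, 184 and 30.7 in the WT libraries. Atp5g1 was thus the lowest of the 3 in both groups, while in WT Atp5g2 and Atp5g3 did not differ beyond the spread of Atp5g2 (SD 77.5). The membrane subunits Atp5k and Atp5j2 had log2 fold changes of 0.43 and 0.42 with groups that did not overlap (adjusted p = 0.127 and 0.162).

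Cox7a2l resembles a cytochrome c oxidase subunit in sequence and is known for joining complexes III and IV into supercomplexes. It fell, with 159, 114 and 127 CPM in the libraries labelled Srsf1-cKO and 247, 221 and 169 CPM in the WT libraries. The groups did not overlap, and the gap between Srsf1-cKO 1 and WT 3 was small (log2 fold change -0.67, SE 0.18, 95% interval -1.08 to -0.26, edgeR adjusted p = 0.0353). Its call was lost without Srsf1-cKO 2 (adjusted p = 0.142), Srsf1-cKO 3 (0.0826), WT 1 (0.140) or WT 2 (0.0666). The rows Atp5s and Atp5sl bear ATP synthase symbols without encoding core subunits. Atp5s was the lowest member kept, at 10 to 31 counts, with 2.34 ± 1.04 CPM in the libraries labelled Srsf1-cKO and 1.92 ± 1.04 CPM in the WT libraries (log2 fold change 0.29, adjusted p = 0.702). Atp5sl had a log2 fold change of -0.40 (adjusted p = 0.218).

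**Figure D3:**
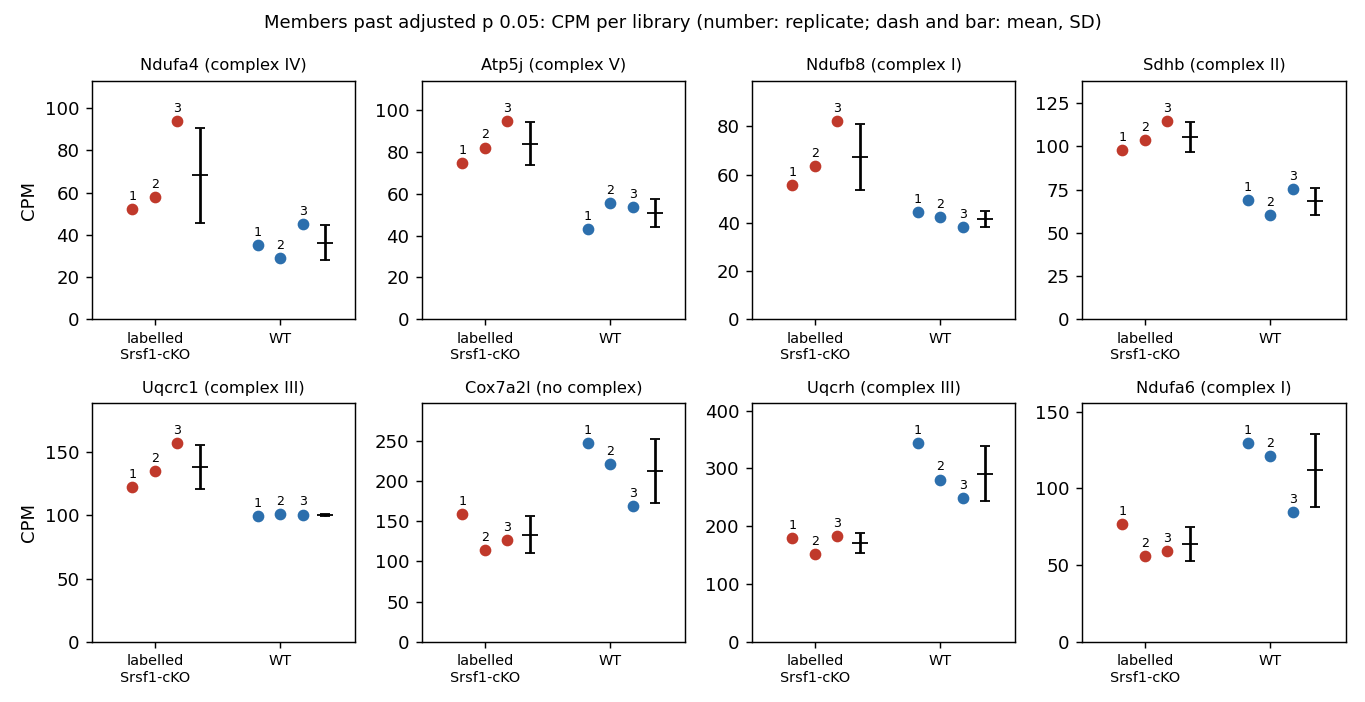
CPM (vertical axis, from 0) of the 8 members with an edgeR adjusted p under 0.05, with 1 point per library labelled by replicate number, the libraries labelled Srsf1-cKO left of WT, and a line at each mean with bars for the SD (n = 3 each). Ndufa4, Atp5j, Ndufb8, Sdhb and Uqcrc1 are higher and Ndufa6, Uqcrh and Cox7a2l lower in the libraries labelled Srsf1-cKO, with no overlap between the groups in any panel.

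Levels can be compared between genes only per length, for which the authors' FPKM values were used. The median FPKM over complex I was 60.1 in the libraries labelled Srsf1-cKO and 46.3 in the WT libraries. Over complex II the medians were 49.99 in the libraries labelled Srsf1-cKO and 43.1 in the WT libraries. Over complex III they were 120.5 in the libraries labelled Srsf1-cKO and 102 in the WT libraries. Complexes IV and V were higher still, with medians of 179 and 203 in the libraries labelled Srsf1-cKO and 135 and 159 in the WT libraries. The order, with complex II lowest, then I, III and IV, and complex V highest, was the same in both groups. Within a complex the levels spread widely, as between 3.90 and 215 FPKM over the genes of complex I in WT. Atp5b, Cox4i1 and Uqcrh had the highest means in both groups. Uqcrh had 370 ± 30.9 FPKM in the libraries labelled Srsf1-cKO and 585 ± 81.7 FPKM in the WT libraries, and Atp5b had 539 ± 28.6 FPKM in the libraries labelled Srsf1-cKO and 467 ± 28.4 FPKM in the WT libraries (SD, n = 3 each). The gene with the highest mean in WT was Uqcrh, and that in the libraries labelled Srsf1-cKO was Atp5b.

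**Figure D4:**
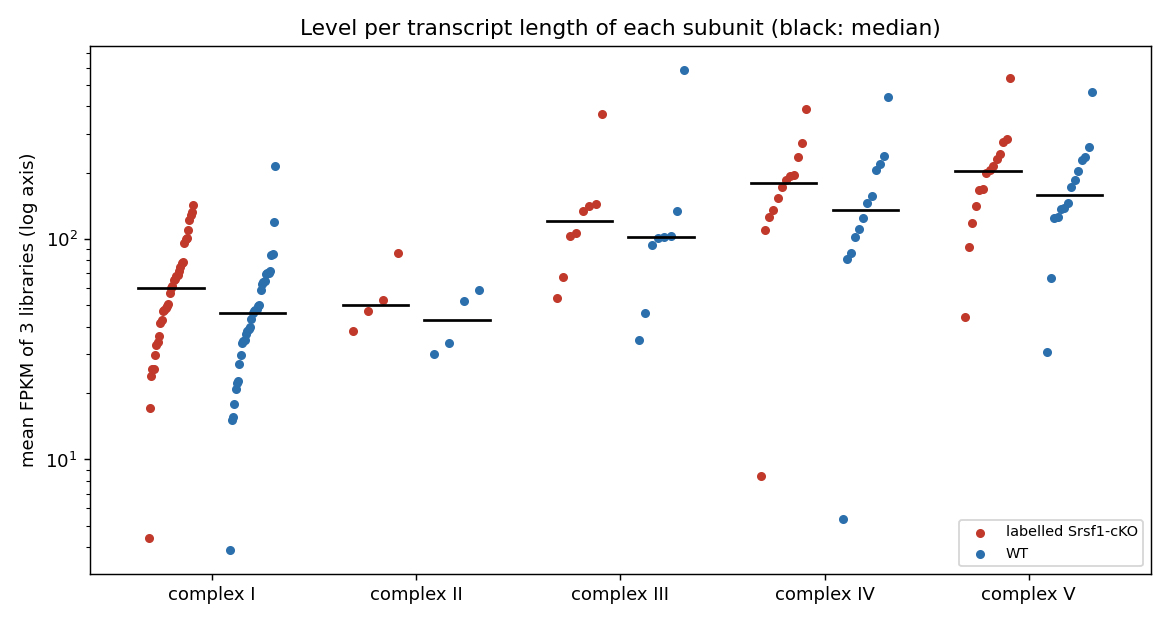
Mean FPKM (log axis) of each kept member in each complex, with the libraries labelled Srsf1-cKO left of WT and black lines at the medians. The medians run between 49.99 and 203 in the libraries labelled Srsf1-cKO and between 43.1 and 159 in WT, and are highest in complexes IV and V in both groups.

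The FPKM table gave more calls upward. With limma on log2(FPKM + 1), 21 of the 76 members were higher in the libraries labelled Srsf1-cKO and 3 were lower, against 12.3% and 6.39% of the 9617 genes tested on that scale. The median difference over all those genes was 0.10 on the log2 scale, so the whole table leaned upward, while the members' median was 0.31. All 8 genes called from the counts were called in the same direction. Upward calls beyond these 8 numbered 11 in complex I (1 core subunit, Ndufv2, and Ndufb4, Ndufb6, Ndufb9, Ndufc1, Ndufc2, Ndufa1, Ndufa5, Ndufa12, Ndufs4 and Ndufs6 among the accessory ones), Sdha in complex II, Cox5a and Cox6a1 in complex IV, and Atp5g1 and Atp5k in complex V. For these genes the differences lay between 0.40 (Cox5a) and 0.78 (Ndufc1). Without Srsf1-cKO 3, 7 members were higher and 1 lower, against 696 and 390 of all 9441 genes tested. No member was called without Srsf1-cKO 2, where 32 of all 9433 genes were higher and 32 lower. Nor was any without WT 1, where 60 of all 9522 genes were higher and 31 lower. A fold change on this scale understates the change of low genes.

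The tables also disagreed on a few short genes. Atp5l, subunit g of the ATP synthase, had 7, 6 and 7 counts in the libraries labelled Srsf1-cKO and 5, 3 and 6 in the WT libraries, and so fell just outside the count limit. Its FPKM was 215, 252 and 301 in the libraries labelled Srsf1-cKO and 202, 212 and 182 in the WT libraries. The ratio of counts to FPKM would give Atp5l a length of 2.81 bases, shorter than a single read of 75 bases, and Atp5g2 one of 54.7 bases. Ndufs5 had no count in any library and an FPKM of at most 1.95. The counts of Atp5l, Atp5g2 and Ndufs5 therefore do not give their level, and how the tables treat reads that match several places, 14.9% to 17.0% of reads per library, was not tested. Ndufb4 and Ndufab1, with few counts, had implied lengths of 163 and 167 bases, so their counts may miss reads too. Many OXPHOS genes have processed pseudogenes, so the split of reads between near-identical copies is uncertain for the group as a whole.

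By the ratio of counts to FPKM, the median implied length was 623 bases over the members and 3662 bases over all tested genes. The ratio is also small where the counts miss reads, as for Atp5g2. The length groups below can therefore mix short genes with undercounted ones. Against length implied by the same ratio, the 34 members under 500 bases had a median log2 fold change of 0.35, while the 237 other genes of that length had a median of -0.08, with 21.9% of them called lower. For the 10 members over 2000 bases the median was 0.15, against -0.02 for 8155 other genes. Between these lengths the medians lay closer together. It was 0.17 for the 17 members of 500 to 1000 bases, against 0.13 for 485 other genes. For the 15 members of 1000 to 2000 bases it was 0.19, against 0.12 for 1501 other genes. With offsets adjusted for this implied length, 8 members were higher and 4 lower, against 9.27% and 10.1% of all tested genes.

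Genes that serve the same machinery without bearing these symbols were counted as background to the members. Of 13 complex I assembly genes, 3 rose in edgeR, with a median log2 fold change of 0.38. None was lower in edgeR, DESeq2 or limma-voom or at an unadjusted p under 0.05, while limma-voom with sample weights called 6 higher and 1 lower. Over all tested genes, edgeR called 8.9% higher and 9.5% lower, which is the edgeR background for each list that follows. For limma-voom with sample weights the background was 21.2% higher and 20.5% lower, and for DESeq2 it was 10.1% and 11.8%. No such share is given for the unadjusted p. Ndufaf4 had 108, 115 and 91.8 CPM in the libraries labelled Srsf1-cKO and 62.5, 53.1 and 59.3 CPM in the WT libraries (log2 fold change 0.85, SE 0.14, edgeR adjusted p = 0.00886). Acad9 (0.69, adjusted p = 0.0273) and Ndufaf7 (0.76, adjusted p = 0.0342), both needed to build complex I, were the others. Unlike most members, Ndufaf4 and Acad9 were lowest in Srsf1-cKO 3 among the libraries labelled Srsf1-cKO. Of 27 assembly genes of complexes II to V, 1 rose in edgeR, Cox15, which makes the haem of cytochrome c oxidase (log2 fold change 0.84, adjusted p = 0.0210), while limma-voom with sample weights called 3 higher and 2 lower. The 13 further subunits and carriers, such as cytochrome c1 and the adenine nucleotide carriers, had no call in edgeR or limma-voom, while DESeq2 called 1 higher and 2 were higher at an unadjusted p under 0.05. Cycs, cytochrome c, had 41.0 ± 1.89 CPM in the libraries labelled Srsf1-cKO and 30.5 ± 2.52 CPM in the WT libraries (log2 fold change 0.43, adjusted p = 0.0681). Atpif1, the inhibitor of the ATP synthase, had a log2 fold change of 0.72 (adjusted p = 0.0819).

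Some enzymes that feed the chain were called with larger fold changes than any subunit. Of 18 TCA cycle genes 3 rose and 1 fell in edgeR. Fh1, fumarate hydratase, the step after succinate dehydrogenase, had 90.2, 97.7 and 95.2 CPM in the libraries labelled Srsf1-cKO and 30.1, 46.6 and 29.8 CPM in the WT libraries (log2 fold change 1.41, SE 0.19, edgeR adjusted p = 0.00648). Suclg1, of the step before succinate dehydrogenase, had a log2 fold change of 1.01 (adjusted p = 0.0101). The NAD-linked isocitrate dehydrogenase was split: Idh3b fell (-0.61, adjusted p = 0.0271), and Idh3a rose (0.46, adjusted p = 0.0460). Cs, citrate synthase, was not called (-0.28, adjusted p = 0.116). Of 16 genes of ubiquinone synthesis and other electron donors, 4 rose and 1 fell, against the same background of 8.9% higher and 9.5% lower. Etfdh, which passes electrons from fatty acid oxidation to ubiquinone, had 20.1 to 27.8 CPM in the libraries labelled Srsf1-cKO and 44.2 to 50.3 CPM in the WT libraries (log2 fold change -0.95, SE 0.17, adjusted p = 0.0102). Its partner Etfb rose (0.92, adjusted p = 0.0216), as did Coq3 (1.24, 0.0143), Coq4 (1.43, 0.0149) and Pdss1 (1.10, 0.0303) of ubiquinone synthesis. Idh3a, Etfb and Pdss1 were named after their values were seen. Among 17 regulators of mitochondrial biogenesis none was called by edgeR, DESeq2 or limma-voom, 1 was lower at an unadjusted p under 0.05, limma-voom with sample weights called 2 lower, and the median log2 fold change was -0.15. Myc had 927, 870.4 and 1283 CPM in the libraries labelled Srsf1-cKO against 1261, 1095 and 1548 CPM in the WT libraries (log2 fold change -0.34, adjusted p = 0.225). Yy1, whose motif is shown above, had a log2 fold change of -0.39 (adjusted p = 0.105).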

How the data were processed

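RNA was sequenced as stranded, single-end reads of 75 bases. Per the submitters' processing notes and file headers, reads were aligned with STAR 2.4.2a to mm9 and Cufflinks was used. The authors deposited raw counts per gene and, in a second table, FPKM values per gene; the counting program, annotation and strand setting were not named in any label or header, so reads of a gene and of an overlapping antisense gene may not be told apart. Alignment summaries gave the mapped shares.

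Here counts were filtered with filterByExpr, scaled by TMM and tested in edgeR 4.0.16 (R 4.3.3; quasi-likelihood test, two-sided), with p-values adjusted by Benjamini-Hochberg over all 10454 genes. CPM values use the TMM-scaled library sizes. On log2(FPKM + 1), limma 3.58.1 (with trend) tested genes at 1 FPKM or more in at least 3 libraries. The fits were tested on simulated data. DESeq2 1.42.0, limma-voom, other scalings, filters and thresholds, length offsets, a replicate block and leaving out each library were alternatives. Replicates differed beyond sampling noise. Named members were, in complexes I, III, IV and V, the 5 with the smallest p, the most abundant and the one with the highest p, plus all of complex II, the isoform families and the members that are not subunits; in the other lists, the 3 with the smallest p and the most abundant. A few more are named as examples of a count or group. Members and lists were chosen with earlier results of these data known. 27 rows whose symbols had become dates were left as they were.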

Additional observations from a re-analysis of the deposited data

How the results depend on the processing

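The count of members called higher (5) was 16 with library size alone (12.1% of all genes), a scaling that moves the median of all genes to 0.11 on the log2 scale and gives a split of 16 higher to 3 lower, 8 with length-adjusted offsets, 8 in DESeq2 (10.1% of all genes), 17 in limma-voom with sample weights (21.2% of all genes), 0 at an adjusted p under 0.01, 18 under 0.1, and 0 to 6 when 1 library was left out. The count called lower (3) was 6 with sample weights (20.5% of all genes) and 0 under 0.01. It was 9 without both libraries numbered 3 (13.6% of all genes), and 0 to 5 when 1 library was left out. Leaving out 1 library gave 0.754% to 9.08% of all genes higher and 0.968% to 10.1% lower. No share of all genes was computed at 0.01 or 0.1, so the counts there, 18 among them, lack a background. The median log2 fold change of complex III was 0.0501 with sample weights and 0.0601 without both libraries numbered 3, and that of complex V was -0.0105 without both. From FPKM, 6 were higher and 1 lower with no filter, against 756 and 390 of all 15192 genes. When 1 library was left out, 0 to 19 were higher and 0 to 4 lower. Over all genes these ranges were 32 to 1341 and 31 to 641. The replicate numbers are not stated to mark a shared source, and the deviations of same-numbered libraries correlated at 0.22, 0.01 and 0.27. With the replicate block 6 members were higher and 3 lower, against 10.7% and 11% of all genes. Members that were not called changed sign as follows, with the range when 1 library was left out in brackets where it crossed 0: Ndufs7 [-0.0839 to 0.0680] was -0.0066 with RLE scaling, -0.0119 with no filter, -0.0946 with length-adjusted offsets, -0.0063 in DESeq2, -0.0413 with sample weights and -0.138 without both libraries numbered 3. Uqcrc2 was 0.0123 with library size alone, Uqcrq [-0.0224 to 0.203] was -0.133 with sample weights and -0.0717 without both, Atp5e [-0.285 to 0.0521] was 0.0501 with library size alone, Atp5g2 [-0.383 to 0.177] was 0.0604 with length-adjusted offsets, and Atp5s ranged [-0.0920 to 0.804]. Without both, Atp5b was -0.0021, Sdhc -0.0443 and Atp5g1 -0.0188. The cause was not tested. No called gene changed direction under these alternatives. With 3 libraries in each group and 10 to 31 counts for the lowest member, small differences were not detectable at this depth.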
